A study of Mus musculus with 7 samples.

Results

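The postsynaptic density is the protein sheet under the membrane of an excitatory synapse, and its scaffold proteins hold glutamate receptors, enzymes and actin regulators in place. Scaffolds of the Dlg family bind receptor tails through PDZ domains, Dlgap proteins bind the guanylate kinase domain of the Dlg proteins, and Shank proteins join Dlgap to Homer and the actin cytoskeleton. Fos is a subunit of AP-1, a transcription factor that firing neurons induce and that binds mostly at distal enhancers. A set of 32 genes of this density was described here, chosen by name from 21887 protein-coding genes: 3 Dlg, 3 Magi and 3 Shank scaffolds, 5 genes for partners of the guanylate kinase domain (Dlgap1 to Dlgap4 and Begain), 7 adaptors, 5 auxiliary receptor subunits and 6 enzymes and regulators. The label could not be checked on expression, since peak lists hold no RNA, and the hippocampal label of the tissue could not be checked for the same reason.

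Fos was immunoprecipitated from the hippocampal chromatin of wild-type C57BL/6J mice 2 months old. The saline group (3 libraries) received PBS. The kainic acid group (3 libraries) received kainic acid, which activates glutamate receptors and brings on seizures, as 2 intraperitoneal injections of 10 mg/kg separated by 30 min. Tissue was taken 1 hour after the first injection from mice whose seizures had reached level 4. An input library, labelled as saline, was not analysed here. The number of animals in a library is not stated, so the spread between libraries may be partly technical.

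The data were 1 peak list per library. The kainic acid lists held 15009, 63197 and 29650 peaks in replicates 1, 2 and 3, and the saline lists held 7, 3277 and 2. Kainic acid replicate 2 therefore carries most peaks, and among the saline lists only that of replicate 2 is long enough to be compared gene by gene. Read totals do not come with the lists, so depth is unknown, and a gene without a peak is one where none was called. A kainic acid region is a stretch where peaks of at least 2 of the 3 kainic acid lists were merged by an overlap of 1 bp or more. Peak counts given for a gene cover all peaks within 10 kb of it in kainic acid replicates 1, 2 and 3, also those outside any region. There were 26862 kainic acid regions, and 435 of them (1.62%) lay within 10 kb of a member gene. Fold is the authors' enrichment of a peak over its local background within 1 library. It is given as deposited and compared only by rank, where 0 is the highest and 100 the lowest fold of a list.

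The promoter windows that a kainic acid region overlaps are shown first, because they are the few places where a region reached a listed start window of a member. RefSeq promoter windows of GRCm38.p6 (250 bases before to 50 after a start) matched 27 of the 32 genes, with 48 windows. Shank1, Shank2, Dlgap2, Neto1 and Tnik were not matched. A region overlapped 4 of the 48 windows (8.33%), against 4.67% of all 32851 windows. The 250 bases before the start are printed 5′ to 3′ on the strand of the gene, and capitals mark the bases inside the kainic acid region.
Dlgap3, chr4:127172630-127172879, plus strand: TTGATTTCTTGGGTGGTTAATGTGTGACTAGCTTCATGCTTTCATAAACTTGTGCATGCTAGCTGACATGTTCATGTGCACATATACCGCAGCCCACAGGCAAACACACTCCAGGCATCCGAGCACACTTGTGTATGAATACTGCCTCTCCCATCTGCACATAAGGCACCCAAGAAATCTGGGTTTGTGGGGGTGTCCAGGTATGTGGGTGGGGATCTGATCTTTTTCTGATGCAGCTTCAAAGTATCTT
Kalrn, chr16:34514028-34514277, minus strand: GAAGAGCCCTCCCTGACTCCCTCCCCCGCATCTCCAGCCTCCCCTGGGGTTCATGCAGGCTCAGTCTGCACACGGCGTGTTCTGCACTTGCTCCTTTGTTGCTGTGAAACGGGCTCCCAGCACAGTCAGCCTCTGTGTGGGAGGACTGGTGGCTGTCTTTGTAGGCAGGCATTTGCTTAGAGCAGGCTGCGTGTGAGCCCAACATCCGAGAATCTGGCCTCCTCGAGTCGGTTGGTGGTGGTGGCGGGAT
Agap2, chr10:127078657-127078906, plus strand: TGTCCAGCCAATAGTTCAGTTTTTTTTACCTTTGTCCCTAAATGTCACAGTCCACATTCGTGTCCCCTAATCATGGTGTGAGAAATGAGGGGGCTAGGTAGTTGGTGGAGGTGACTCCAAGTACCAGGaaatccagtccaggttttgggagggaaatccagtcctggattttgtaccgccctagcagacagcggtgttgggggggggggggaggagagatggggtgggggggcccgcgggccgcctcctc
Dlg1, chr16:31695298-31695547, plus strand: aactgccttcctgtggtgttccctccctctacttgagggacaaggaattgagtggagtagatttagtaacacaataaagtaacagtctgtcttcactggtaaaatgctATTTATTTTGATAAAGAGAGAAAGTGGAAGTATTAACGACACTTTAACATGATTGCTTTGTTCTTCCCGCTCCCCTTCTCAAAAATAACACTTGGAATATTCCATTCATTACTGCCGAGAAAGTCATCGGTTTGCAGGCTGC
The AP-1 motif TGANTCA, searched on both strands of the 300 bases, was in 0 of the 48 member windows and in 7.81% of all windows. The cyclic AMP response element TGACGTCA was in 0 of 48 and in 1.79%. Its shorter form TGACG, which every full element also contains, was in 7 of 48 (14.6%) and in 20.8%. The 48 windows come from 27 genes and differ from all windows in base content. The median share of G and C in the 250 bases before the start was 60.2%, against 52.4% for all windows. The motif shares were not adjusted for this, so they do not show a depletion. The Dlgap3 and Kalrn regions covered all 250 bases printed and came from kainic acid replicates 2 and 3, with folds of 8.91 and 5.29 at Dlgap3 and of 7.50 and 5.62 at Kalrn. The Agap2 region was in all 3 lists, with folds of 3.48, 6.62 and 3.76 in replicates 1, 2 and 3. The Dlg1 region was among the weakest of the set, with folds of 3.01 and 3.20 in replicates 2 and 3 and a mean rank of 88.0. In kainic acid replicate 2 the summit of the peak lay inside the printed bases only at Kalrn. At Dlgap3 and Agap2 the summit lay farther upstream, and at Dlg1 it lay just past the start. The motif search therefore did not cover the sequence at the Dlgap3 and Agap2 summits. All 4 of these starts lie inside the outer span of the gene.

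The first question is how many of these genes lie near Fos after kainic acid. A kainic acid region lay within 10 kb of 26 of the 32 genes, 81.2% (95% Clopper-Pearson interval 63.6 to 92.8, counting error only). Of all protein-coding genes 40.0% had one, but long genes have one more often, and the members are long. Other protein-coding genes weighted to the same length classes reached 67.6%, which lies inside the interval of the members. The interval is no test, since members are not replicates, and the count was not shown to set them apart from genes of their length. The gap varied with the setting. It was 90.6% against 79.3% with a reach of 50 kb and 78.1% against 54.9% with equal numbers of kainic acid peaks. With a −log10 q of at least 10 it was 71.9% against 45.5%. A region in all 3 kainic acid lists lay near 23 members (71.9%), against 23.9% of all genes and 52.4% of genes weighted to the same length classes. Without kainic acid replicate 2 or 3, when both remaining lists had to hold a region, the count was 23 in both cases. By length, regions lay near 3 of 6 members under 25 kb (27.4% of all genes of that length), 2 of 2 of 25 to 50 kb (44.9%) and 5 of 7 of 50 to 100 kb (58.9%). They lay near 4 of 4 members of 100 to 200 kb (76.8%), 3 of 4 of 200 to 400 kb (85.6%) and 9 of 9 over 400 kb (94.3% of 352 genes).

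What differed more was the number of regions per length. The 32 genes with their flanks held 4.09 regions per 100 kb, and other genes of the same length classes held 1.48. At that density the members would hold 157 regions, and the count of 435 was 2.77 times as many. The count itself rested on the longer lists. Leaving out kainic acid replicate 1, 2 or 3, so that both remaining lists had to hold a region, gave 407, 220 and 237 regions. The ratio to genes of like length lay between 2.59 and 3.02 under the alternatives run, including those that left out each library. It is a description without a test, because the regions of a gene are not independent. The members were also chosen with earlier results of these data known, and whether this raised the ratio was not tested. The count was uneven: Dlg2, Dlgap1 and Dlgap2 held 224 regions (51.5%), and the 29 other genes held 3.02 per 100 kb against 1.52 for their length classes. At least 5 regions per 100 kb were present at 10 of the 32 members and at 7.75% of all genes.

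**Figure D1:**
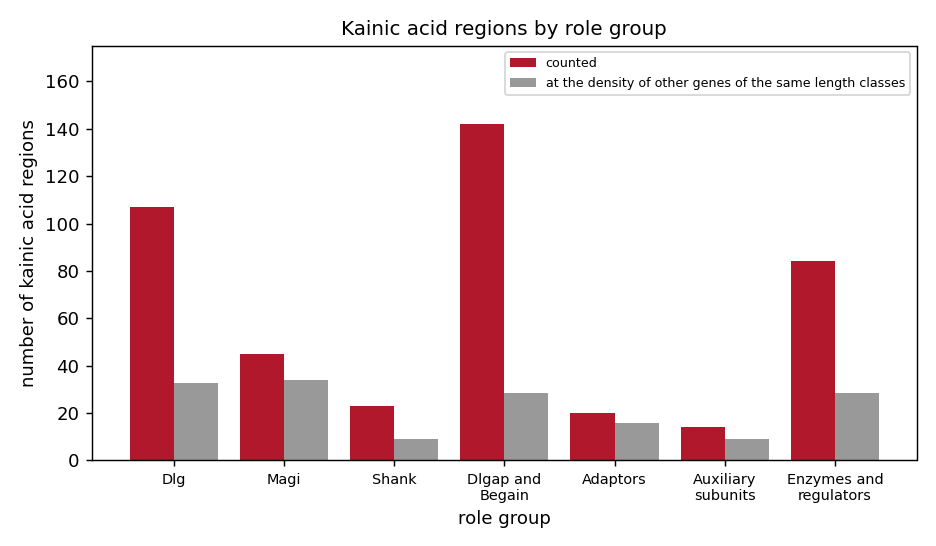
Bars give the number of kainic acid regions within 10 kb of the genes of each role group (red) and the number at the density of other protein-coding genes of the same length classes (grey). Dlgap and Begain (142 against 28.3) and Dlg (107 against 32.7) stand farthest above the grey bars, while by ratio Magi (45 against 33.9) and the adaptors (20 against 15.6) lie closest to them.

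The second question is how the treated libraries compare with saline. Peaks lay within 10 kb of 24, 31 and 26 members in kainic acid replicates 1, 2 and 3, and of 0, 14 and 0 members in saline replicates 1, 2 and 3. Every kainic acid library was above every saline library, with means of 27.0 ± 3.61 (SD, n = 3) and 4.67 ± 8.08 (SD, n = 3). The difference of 22.3 genes exceeded the SD of either group, and the two-sided exact permutation test over 20 assignments gave p = 0.1, the smallest that 3 against 3 allow. Over all protein-coding genes the shares with a peak were 26.4%, 60.3% and 40.9% in the kainic acid lists, and 0.0137%, 17.0% and 0% in the saline lists. Saline replicates 1 and 3, with 7 and 2 peaks, could hardly reach a member, and against saline replicate 2 alone the difference was 13.0. More peaks in every kainic acid list than in every saline list were found at 22 of the 32 members and at 20.7% of all genes. These shares over all genes were not weighted to the length classes, and the members are long. Relative to the length of its list, a library placed 1.83%, 1.42% and 1.72% of its peaks near members in kainic acid replicates 1, 2 and 3 and 0.793% in saline replicate 2.

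**Figure D2:**
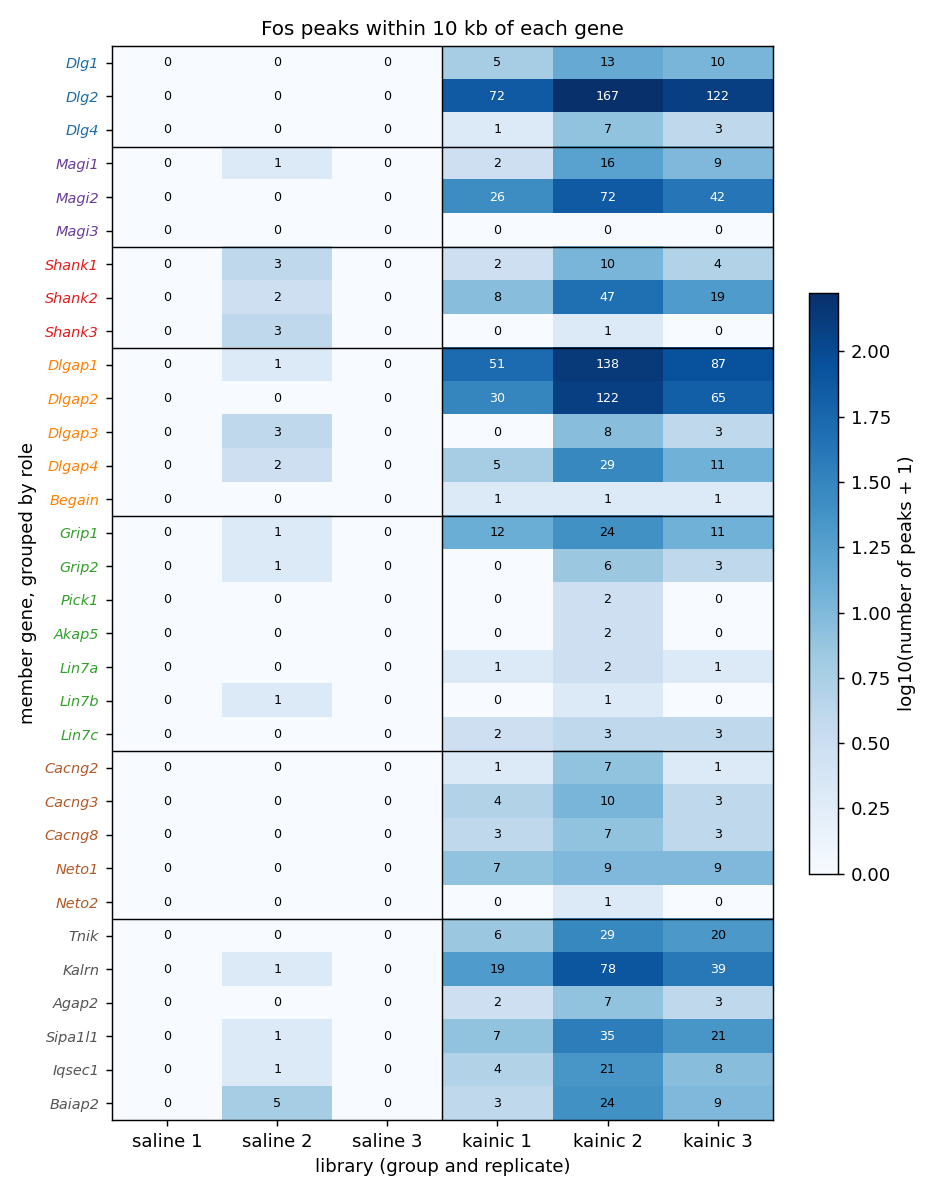
Each cell gives the number of Fos peaks within 10 kb of a member gene (rows, coloured and ruled by role group) in 1 library (columns), shaded by log10(number + 1). Saline replicates 1 and 3 are at 0 throughout, saline replicate 2 reaches 5 at Baiap2, and the highest kainic acid counts are those of Dlg2 (72, 167 and 122), Dlgap1 and Dlgap2.

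Among the Dlg scaffolds, Dlg2 encodes PSD-93, and it had more kainic acid regions than any other of the 21887 genes, 96, of which 54 were in all 3 lists. The gene (chromosome 7, 90476188 to 92449246) is also among the longest, and its 4.82 regions per 100 kb ranked 21 among the 352 genes over 400 kb. Dlg2 had 72, 167 and 122 peaks in kainic acid replicates 1, 2 and 3 and none in the saline lists. Per 10000 peaks of a list these were 48.0, 26.4 and 41.1, so replicate 2, the longest list, gave Dlg2 its lowest share. Its regions crowded toward the middle of the gene, with 41 of 96 in the middle one of 5 equal parts and 12 within 50 kb, 923 to 970 kb from the start. Dlg1, which encodes SAP97, had 9 regions, or 3.91 per 100 kb, with 5, 13 and 10 peaks nearby. Dlg4, the gene of PSD-95 and the best known scaffold of the density, is only 28.3 kb long and had 2 regions, with 1, 7 and 3 peaks nearby. One of the Dlg4 regions, called in replicates 2 and 3, lay inside the gene, and the other, in all 3 lists, inside its neighbour Acadvl. No saline list had a peak near any of the 3 Dlg genes.

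The Magi genes encode scaffolds with an inverted order of PDZ and guanylate kinase domains, and as a group they stood close to genes of their length, at 1.91 regions per 100 kb against 1.44. The members of the group differed. Magi2, which encodes S-SCAM, had 39 regions, with 26, 72 and 42 peaks nearby. Its density of 2.59 per 100 kb was above that of 80.5% of other genes over 400 kb. The first of 5 equal parts of Magi2 held 0 of the 39. Magi1 had 6 regions over 608 kb, or 0.955 per 100 kb, a density above that of 46.4% of other genes over 400 kb. Magi3 had 0 peaks in all 6 lists over its 207 kb and flanks, the only member for which that was so. The nearest kainic acid region lay 177 kb from Magi3, whereas 85.6% of all genes of 200 to 400 kb had a region.

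Shank proteins form the deeper layer of the density, and their genes differed from each other. Shank2 had 20 regions, 6 of them in all 3 lists, with 8, 47 and 19 peaks nearby. Shank1 had 3 regions, with 2, 10 and 4 peaks nearby, and the one at chromosome 7, 44321105 to 44322879, was sixth by rank of all member regions. Shank3 had 0 regions, with 1 peak in kainic acid replicate 2 and 3 peaks in saline replicate 2. It is the member just outside the reach, with the nearest region 11.4 kb away, while Cacng2 lies just inside, with its only region 8.59 kb from the gene.

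The partners of the guanylate kinase domain were the densest group, with 142 regions, or 7.22 per 100 kb. Dlgap1 encodes GKAP, which ties the Dlg proteins to Shank. It had 74 regions, the second highest number of all genes, with 51, 138 and 87 peaks nearby, and its 8.48 per 100 kb was the highest among the 352 genes over 400 kb. This first place became the second when the −log10 q had to reach 10 and when the gene span was used without flanks. Dlgap2 had 54 regions, the fourth highest number of all genes, at 6.94 per 100 kb, with 30, 122 and 65 peaks nearby. Relative to list length these counts were 28.4 ± 6.13 peaks per 10000 for Dlgap1 and 20.4 ± 1.36 for Dlgap2 (SD, n = 3), and Dlg2, Dlgap1 and Dlgap2 came in this order in each of the 3 libraries, although the spreads of Dlg2 and Dlgap1 over libraries meet. Dlgap4 had 11 regions, with 5, 29 and 11 peaks nearby. Dlgap3 had 2 regions, both called in replicates 2 and 3 and not in replicate 1. Begain, which binds PSD-95, had 1 region, which was in all 3 kainic acid lists.

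**Figure D3:**
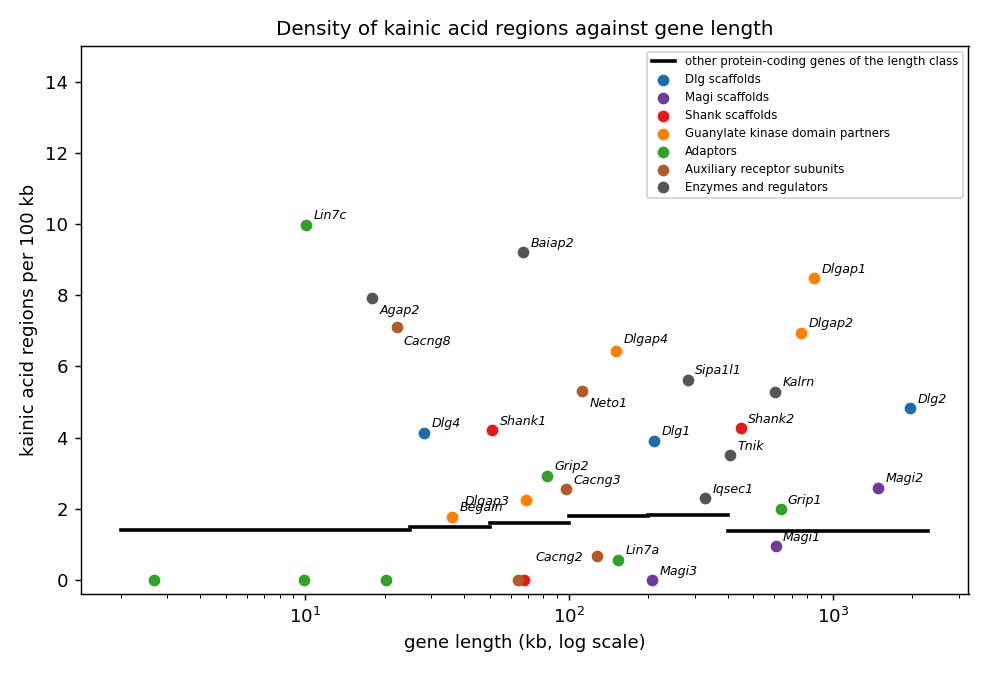
Kainic acid regions per 100 kb of gene and flank are plotted against gene length (log scale) for the 32 members, coloured by role group, and black lines give the density of other protein-coding genes in each length class. Most members lie above the lines, Dlgap1 is highest among the long genes at 8.48, and Magi1, Cacng2, Lin7a and the 6 genes at 0 lie below.

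The 7 adaptors held 20 regions, or 1.90 per 100 kb against 1.48 for their length classes. Grip1, a PDZ protein that binds AMPA receptor tails, had 13 regions over 634 kb, with 12, 24 and 11 peaks nearby. Grip2, its relative, had 3 regions, of which only 1 lay inside the gene, the other 2 being inside Slc6a6 and Ccdc174. Lin7c, a small PDZ protein of the Veli family, had 3 regions and 2, 3 and 3 peaks around a gene of 10.1 kb. Its density, 9.98 per 100 kb of gene and flank, was the highest of the set. Only 1 of the 3 Lin7c regions lay inside the gene, and only 1 was in all 3 kainic acid lists. Lin7a had 1 region, called in replicates 2 and 3, beside nearby peak counts of 1, 2 and 1, and Lin7b had 0 regions. Pick1, a BAR domain protein that takes part in AMPA receptor endocytosis, and Akap5, which anchors protein kinase A and calcineurin, had 0 regions each. The peaks near Pick1 and Akap5, 2 for each gene, were all in kainic acid replicate 2. The nearest regions lay 51.9 kb from Pick1 and 35.2 kb from Akap5.

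Auxiliary subunits travel with the receptors and set their gating. Cacng2, Cacng3 and Cacng8 encode such subunits of AMPA receptors, of the family of stargazin. Cacng8 had 3 regions, none of them inside the gene, and 3, 7 and 3 peaks nearby. Cacng3 had 3 regions, all inside the gene, and 4, 10 and 3 peaks nearby. Cacng2 had 1 region, outside the gene and in all 3 lists, and nearby peak counts of 1, 7 and 1. Neto1 and Neto2 encode partners of kainate receptors and parted: Neto1 had 7 regions, 5 of them in all 3 lists, with 7, 9 and 9 peaks nearby, whereas Neto2 had 0 regions and 1 peak in replicate 2. No peak of a saline list lay near these 5 genes.

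All 6 enzymes and regulators had regions, 84 in all. Kalrn, a guanine nucleotide exchange factor of dendritic spines, had 33 regions, with 19, 78 and 39 peaks nearby. The peaks near Kalrn were 12.7 ± 0.409 per 10000 peaks of a list (SD, n = 3), and 15 of the 32 regions inside Kalrn lay in the first of 5 equal parts of the gene. Sipa1l1, a GTPase activator for Rap, had 17 regions, 8 of them within 50 kb, with 7, 35 and 21 peaks nearby. Tnik, a kinase, had 15 regions and Iqsec1, an exchange factor for Arf, had 8. Baiap2, an I-BAR protein that links membranes to actin, had 8 regions and 3, 24 and 9 nearby peaks at a gene of 66.9 kb, 9.21 per 100 kb, which exceeded 98.8% of other genes of 50 to 100 kb. Agap2, a GTPase activator for Arf, had 3 regions at 7.92 per 100 kb, 1 of them inside Tspan31.

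**Figure D4:**
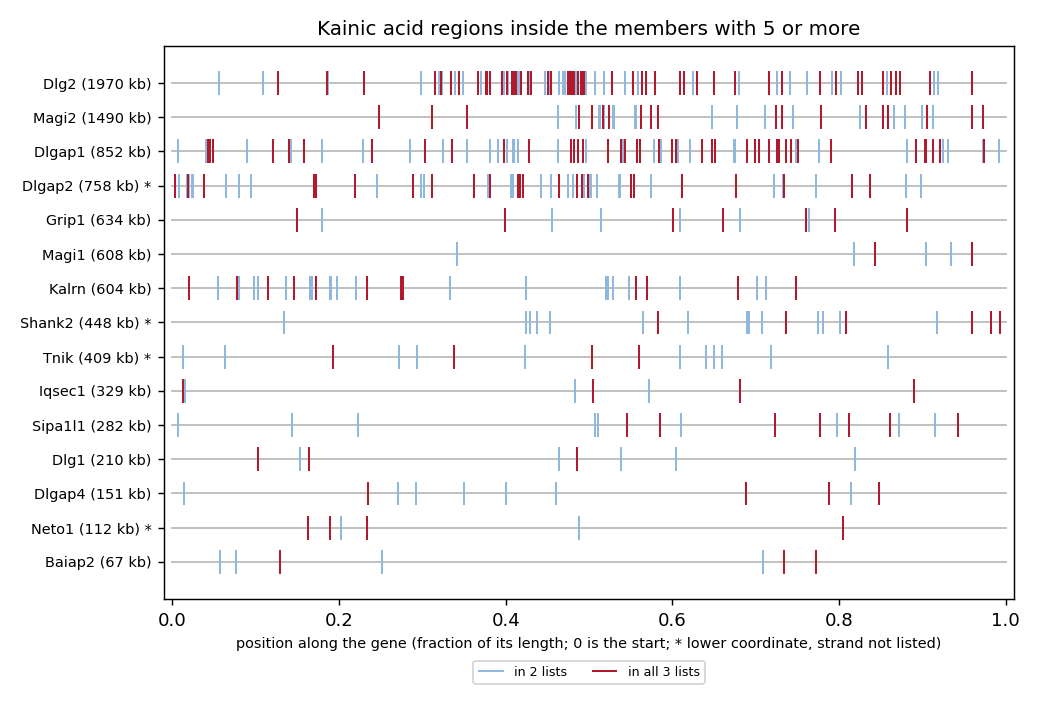
Each line is a member with 5 or more kainic acid regions, scaled to its length, with a tick for each region inside the gene, pale for regions in 2 lists and red for regions in all 3. In Dlg2 the ticks crowd at the middle (41 of 96 in the middle one of 5 equal parts), in Kalrn 15 of 32 lie in the first part, and in Magi2 the first part is empty.

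By position, 420 of the 435 regions (96.6%, 94.4 to 98.1) had their midpoint inside the member, and 15 lay in the flanks. A further 11 regions lay 10 to 20 kb away. None of the 435 midpoints was within 1 kb of an outer end of its own member gene. Of all kainic acid regions near a protein-coding gene, 10.6% were within 1 kb of an end, counted over any such gene nearby, which is a wider measure. Length enters here too, since the share was 1.19% in other genes over 400 kb. For members with a listed start the median distance to the nearest one was 108 kb, and 299 of 336 regions (89.0%) lay over 10 kb from each. No such values are given here for other genes, so they do not set the members apart from genes of their length. A midpoint within 1 kb of a listed start was found for 6 of 27 members and for 9.42% of all genes with one. The share over all genes was not weighted to the length of the members. The gene table gives no exons, so whether a region was exonic or intronic was not determined. Along the gene, the middle one of 5 equal parts held 32.9% of the 292 regions inside the 10 members over 200 kb with a listed strand, against 19.0% in other genes over 200 kb. Of those 96 regions Dlg2 gave 41, Dlgap1 20 and Magi2 16.

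By fold the member regions lay close to kainic acid regions in general. Their median rank was 43.8, and that of all kainic acid regions was 42.2. The best 10 percent of ranks held 7.36% of member regions and 7.72% of all regions. By role group the medians ran from 39.0 for the auxiliary subunits (14 regions) to 57.8 for Magi (45 regions, 39 of them of Magi2). This order did not hold in each list. The auxiliary and Magi medians were 48.1 and 44.5 in replicate 1, 20.4 and 32.3 in replicate 2, and 34.9 and 57.6 in replicate 3. Rank also went with list membership, at a median of 32.6 for member regions in 3 lists and 54.8 in 2. In all 3 lists were 71.4% of auxiliary and 46.7% of Magi regions. Of the 435 regions 211 (48.5%) were in all 3 lists, against 44.4% of all kainic acid regions. A further 531 stretches near members had a peak in 1 kainic acid list only, 439 of them in replicate 2. Of all stretches with a kainic acid peak, 45.0% near members and 40.3% in general were in 2 or more lists.

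**Figure D5:**
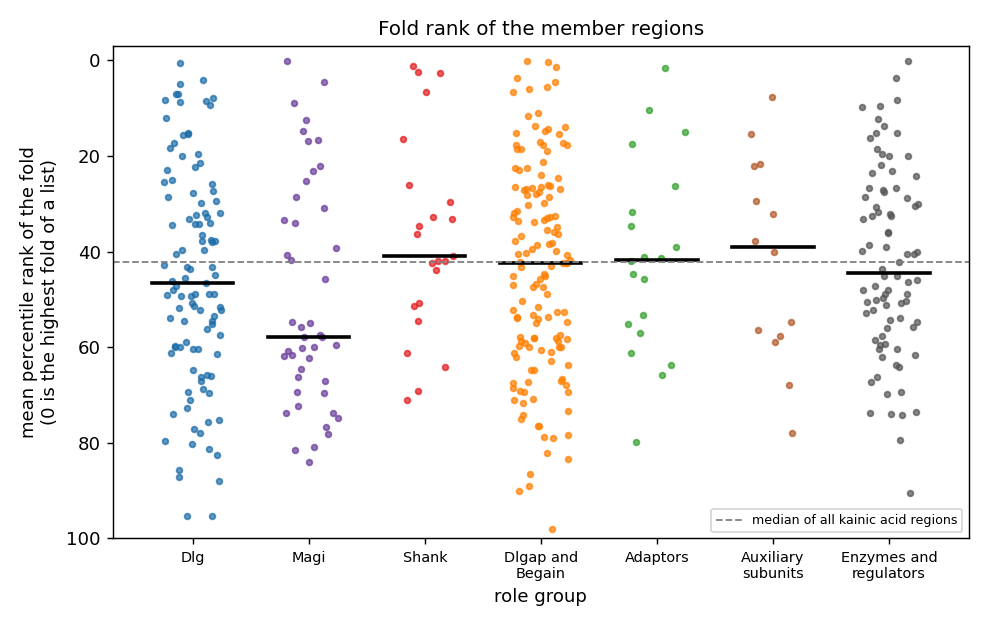
Each point is a kainic acid region near a member, placed by its mean percentile rank of fold (0 at the top is the highest fold of a list), with bars at the medians of the role groups and a dashed line at the median of all kainic acid regions, 42.2. The groups spread over nearly the whole range, and the Magi median lies lowest, at 57.8.

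The strongest regions were spread over several families, and all 10 with the best mean ranks were in all 3 lists and inside the gene. The first lay in the distal part of Dlgap1 (chromosome 17, 70753096 to 70754414), with folds of 17.4, 30.4 and 16.0 in replicates 1, 2 and 3. Next was a region of Magi2 (chromosome 5, 19745228 to 19746275), at 14.9, 22.9 and 15.3. The third, in Baiap2 (chromosome 11, 119991039 to 119992275), had the highest single fold of the set, 39.0 in replicate 2, beside 12.5 and 19.0. Dlgap2 followed (chromosome 8, 14467767 to 14469435) with 14.2, 20.0 and 13.9, and then Dlg2 (chromosome 7, 91109213 to 91110196) with 11.6, 19.7 and 13.1. The sixth was the Shank1 region given above, with folds of 11.2, 16.7 and 10.3. Places 7 to 10 went to Dlgap2, Grip1 and, with 2 regions, Shank2, at mean ranks of 1.45, 1.61, 2.46 and 2.76.

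Saline replicate 2 had 26 peaks near 14 members, with folds of 2.96 to 6.22. Only 6 of these lay at a kainic acid region, 1 each in Baiap2, Shank1, Grip1, Shank2, Kalrn and Dlgap3. Regions with a saline peak were thus 1.38% of member regions (0.508 to 2.98), against 2.01% of all kainic acid regions. Of the 32 members 6 had one, against 2.98% of all genes, a share that was not weighted to the length of the members. The Baiap2 and Shank1 sites are the third and sixth strongest above, with saline folds of 6.22 and 4.76, and the Grip1 site had 4.58. At the sites in Shank2, Kalrn and Dlgap3 the saline folds were 3.66, 5.48 and 4.39. The other 8 members with a saline peak, Magi1, Shank3, Dlgap1, Dlgap4, Grip2, Lin7b, Sipa1l1 and Iqsec1, had it where no kainic acid region was called. All these values rest on 1 saline library.

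Other genes of the postsynaptic density, 36 listed for comparison and none of them a member, were counted in the same way. Of these, 33 had a kainic acid region (91.7%), against 62.4% for their length classes. They held 235 regions, 3.62 per 100 kb against 1.57 in genes of like length, where the members had 4.09 against 1.48. This list, too, was chosen with earlier results of these data known, so it is no independent check.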

How the data were processed

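Fos ChIP-seq of mouse hippocampus was analysed from 6 peak lists, 1 per library. Per the submitters' processing notes, the authors used Trim Galore 0.6.4, Bowtie2 2.3.4.3, MACS2, deepTools 3.5.0 and the build mm10. Peak names show a mapping quality filter of 30, and the cutoff and control are not given in the sources used here. The deposited lists hold a fold, which is a ratio to local background, −log10 p and −log10 q values, a score of 10 times the −log10 q, and summit positions. No value is scaled between libraries.

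Peaks were merged across lists with Python 3.11.15 (pandas 2.3.3, scipy 1.17.1). Gene spans came from RefSeq, GRCm38.p6. Density is regions per 100 kb of span plus 10 kb flanks, and length classes break at 25, 50, 100, 200 and 400 kb. On simulated lists for the members, all 66 planted regions in 16 genes were returned and 0 others. The simulated background peaks were placed away from all genes. The 0 therefore covers only peaks planted outside the reach or in too few lists, not false regions at the real peak densities. Members, lists and the rule for named genes were chosen with earlier results of these data known. The rule names, per role group, the genes with most and strongest regions, genes without a region, the 10 best regions and genes with a saline peak. Two-sided exact permutation tests were used.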

Additional observations from a re-analysis of the deposited data

How the results depend on the processing

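The number of member regions depended on how many peaks entered. Requiring a −log10 q of 5 or 10 gave 287 and 122. It was 211 when all 3 kainic acid lists were required and 203 with equal numbers of kainic acid peaks. Leaving out 1 library gave 220 to 435, the lowest without kainic acid replicate 2, with 237 without replicate 3 and 407 without replicate 1; the cause was not tested. Without kainic acid replicate 2 or 3, and with all 3 lists required, Dlgap3, Grip2 and Lin7a lost their regions. The share of genes with a region ran from 71.9% to 90.6% over all alternatives and stayed above the share of genes of like length wherever that share was computed. The share inside the gene was 100% with no flank and 88.1% with a reach of 50 kb, by construction. The median rank was 32.6 with all 3 lists (30.3 over all regions).

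Member regions with a saline peak numbered 1 and 0 when a −log10 q of 5 or 10 was required, and 0 to 6 with 1 library left out, 0 being without saline replicate 2. The difference in genes with a peak kept its direction, from 20.0 to 27.0 with 1 library left out. With the replicate block it was 22.3, and an exact permutation of the signs of the pairs gave p = 0.25, which is the least that 3 pairs can give. Saline replicates 1 and 3 had 0 peaks at every member, so whether same-numbered libraries go together could not be checked, and the numbers were not taken as pairs. These tests cannot pass 0.05, so their p-values say nothing about stability. Of 416 counts for single members, 122 moved beyond 1.5-fold, 114 to fewer and 8 to more. Leaving out the short saline lists, or regions inside another gene, was added after the data were seen. The latter left 429 regions.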
